A study of Mus musculus with 4 samples.

Results

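Gata2, Ms4a2, Alox15 and Prg3, which eosinophils, basophils or mast cells use, were described in granulocyte-monocyte progenitors sorted out of mouse bone marrow, either wild type or MST1 deficient. They were taken by NCBI gene number from the lists of transcripts that lie outside the reference annotation, called unannotated transcripts here, and they make up 4 of 5059 annotated genes and 6 of 8219 unannotated transcripts listed in any library. The genes were picked because their summed unannotated transcripts had lower values in the MST1-deficient pools, so that difference is given as a description, with no test. Each group held 2 libraries of poly(A)-selected RNA, and each library pooled the sorted cells of 10 mice. By the labels the groups differed in genotype, wild type against MST1 deficient. Levels of Y-linked genes differed between them as well, as given further on. Both were held in medium with serum and given no drug, and the strain, age and sex of the mice and the design of the MST1 allele are not given in the sources used here.

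Granulocyte-monocyte progenitors give rise mainly to neutrophils and monocytes, and the bone marrow fraction that carries the name can also hold cells on the way to eosinophils, basophils and mast cells. GATA2 is a zinc finger transcription factor of stem and progenitor cells and of the basophil and mast cell lineages. Ms4a2 encodes the beta subunit of the IgE receptor FceRI, which amplifies the receptor's signal in mast cells and basophils. Alox15 encodes a lipoxygenase that oxidises arachidonic acid and other fatty acids, and eosinophils and some macrophages are known for it. Prg3 encodes a relative of major basic protein, a cationic protein of the eosinophil granule. MST1 was taken to be the Hippo pathway kinase that Stk4 encodes.

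Levels are given as FPKM, the estimated count scaled by the length of the transcript and the size of the library. The 4 libraries held between 928977 and 1079382 estimated counts in unannotated transcripts, or 11.8% to 13.5% of the library totals of 6913370 to 8518379 implied by the FPKM. Stk4, its relative Stk3 and the unrelated gene Mst1 were each listed in 0 libraries, so the values could not check the genotype. The cell type could not be checked either, since a gene without an unannotated transcript may still be expressed from its annotated ones. Of 18 markers of granulocyte-monocyte progenitors, 14 had no unannotated transcript in any library, among them Mpo, Elane, Prtn3, Ctsg and Cd34. Csf3r, Fcgr2b, Gfi1 and Kit had at least 1, Kit with 0.05 FPKM at most. The 18 summed to 121.2 and 94.4 FPKM in wild type and to 120.5 and 116 FPKM in the MST1-deficient libraries. Their annotated transcripts were not analysed here, so each gene's value is the part held by its unannotated transcripts.

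The starts of these genes differ in sequence. Stretches of 250 bases upstream of a RefSeq start (GRCm38.p6) are given for Prg3, Ms4a2 and Gata2. They are shown because GATA2 itself is a member and binds GATA sites. Capitals mark the GATA core, searched as GATAA on both strands (TTATC where it lies on the other strand). The first stretch is at chr2:84987965-84988214 on the plus strand, the second at chr19:11623720-11623969 on the minus strand and the third at chr6:88193641-88193890 on the plus strand.
Prg3: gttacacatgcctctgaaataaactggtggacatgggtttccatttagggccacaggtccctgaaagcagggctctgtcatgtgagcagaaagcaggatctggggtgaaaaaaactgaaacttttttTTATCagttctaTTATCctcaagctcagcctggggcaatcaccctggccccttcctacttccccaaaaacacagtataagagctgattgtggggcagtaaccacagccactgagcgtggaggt
Ms4a2: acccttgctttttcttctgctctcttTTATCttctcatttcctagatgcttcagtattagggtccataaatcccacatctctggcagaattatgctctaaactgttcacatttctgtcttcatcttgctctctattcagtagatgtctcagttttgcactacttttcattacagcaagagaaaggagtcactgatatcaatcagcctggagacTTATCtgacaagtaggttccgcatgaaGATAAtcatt
Gata2: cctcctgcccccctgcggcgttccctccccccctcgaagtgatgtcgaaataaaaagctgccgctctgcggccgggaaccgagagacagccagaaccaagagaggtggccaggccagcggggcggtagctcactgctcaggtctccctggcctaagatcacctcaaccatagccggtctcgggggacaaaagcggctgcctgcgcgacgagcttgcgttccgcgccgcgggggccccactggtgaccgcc
The Prg3 stretch held 2 GATA cores, at positions -123 to -119 and -111 to -107 from the start. The Ms4a2 stretch held 3, at -224 to -220, -37 to -33 and -10 to -6. The starts used for Prg3 and Ms4a2 lie inside the RefSeq gene bounds (84988196 for Prg3 and 11623790 for Ms4a2). The Ms4a2 cores at -37 to -33 and -10 to -6 therefore fall within the gene bounds, not upstream of them. Of 32851 promoter stretches of the same length, 22.6% held at least 1 GATA core, 4.28% at least 2 and 0.712% at least 3. The Gata2 stretch held 0, as did the stretch before its second, inner start (chr6:88198414-88198663). The 2 Gata2 stretches had 67.2% and 74% of G and C, against 48.4% for Prg3, 38.8% for Ms4a2 and a median of 52.4%. The shares of stretches that hold a motif were not matched for G and C. Of the other motifs searched on both strands, RUNX (TGTGGT) was found 1 time, in Prg3, whereas PU.1 (GAGGAA), C/EBP (TTGCNNAA) and the CACC box (CCACCC) were found 0 times in these 4 stretches, where 14.1%, 23.3%, 9.56% and 28.1% of all stretches hold them, in that order. A match describes the letters and is not a measured binding site, and these motifs can occur at other places of the genes.

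Gata2, the transcription factor gene of the set, had the highest level. Its unannotated transcripts summed to 74.22 and 78.88 FPKM in wild-type replicates 1 and 2 and to 64.4 and 63.04 FPKM in MST1-deficient replicates 1 and 2. In FPKM both MST1-deficient libraries thus lay below both wild-type libraries, whereas the groups overlapped under 3 of the 6 scalings compared further on. The mean was 63.72 ± 0.962 FPKM (SD, n = 2) against 76.55 ± 3.3 in wild type, which is 16.8% lower, and among the 4 genes this was the smallest relative difference. The gap of 9.82 FPKM between the groups' nearest libraries was larger than the spread of 4.66 FPKM within the wild-type pools and of 1.36 FPKM within the MST1-deficient pools. Fewer cells of a type and less RNA per cell cannot be told apart in such bulk samples, here and for the genes below.

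A pair of unannotated transcripts carried the Gata2 level (gene 14461, chromosome 6, 88193891 to 88207032, GRCm38). The form of 3287 bases, novel_T008141, had 68.03 and 73.47 FPKM in the wild-type pools and 57.06 and 58.44 FPKM in the MST1-deficient pools. It made up 92.4 ± 1.05% (SD, n = 2) of the Gata2 FPKM in the wild-type pools and 90.7 ± 2.9% in the MST1-deficient pools. The longer form of 4801 bases, novel_T008142, had 6.19 and 5.41 FPKM in the wild-type pools and 7.34 and 4.6 FPKM in the MST1-deficient pools. Its groups overlapped, since the highest and the lowest library were both MST1-deficient. Of the group difference of -12.83 FPKM for the gene, the shorter form accounted for -13 FPKM and the longer form for 0.17 FPKM. The shorter form lies between the 2 longest of 5 annotated Gata2 models (3571 and 3135 bases in GENCODE M21), and the longer form exceeds both. The extra 1514 bases of the longer form could not be placed, since the sources used here give transcript lengths but not exon positions.

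Ms4a2, the receptor chain gene (gene 14126, chromosome 19, 11615517 to 11623790), was carried by 1 unannotated transcript, novel_T004790, of 2623 bases. It had 37.41 and 49.89 FPKM in wild-type replicates 1 and 2 and 20.67 and 30.47 FPKM in MST1-deficient replicates 1 and 2. The groups did not overlap in FPKM, with MST1-deficient replicate 1 the lowest library. As a gene sum they did overlap under 1 of 6 scalings, RLE. With scaling among single transcripts they overlapped under RLE and under median centring. The mean of 25.6 ± 6.93 FPKM (SD, n = 2) was 41.4% below the wild-type mean of 43.65 ± 8.82. The gap of 6.94 FPKM between the nearest libraries was smaller than the spread within wild type (12.48 FPKM) and within the MST1-deficient pools (9.8 FPKM). Exact Poisson 95% intervals, which cover counting error only, ran from 18.6 to 22.9 FPKM in MST1-deficient replicate 1 and from 28.2 to 32.9 FPKM in replicate 2. The form was 232 bases longer than the longest of 5 annotated Ms4a2 models (2391 bases).

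Alox15, the lipoxygenase gene (gene 11687, chromosome 11, 70344147 to 70390538), was likewise carried by a single form, novel_T001362, of 2742 bases. Its level was 33.19 and 52.15 FPKM in the wild-type pools and 23.32 and 28.59 FPKM in the MST1-deficient pools. The groups did not overlap in FPKM but, as a gene sum, overlapped or tied under 4 of 6 scalings. The tie was under quantile normalisation, and with scaling among single transcripts the groups did not overlap there. Wild-type replicate 2 stood well above the other 3 libraries, and wild-type replicate 1 was nearer to MST1-deficient replicate 2 than to its own partner. The means were 25.955 ± 3.73 FPKM (SD, n = 2) in MST1-deficient and 42.7 ± 13.4 FPKM in wild-type libraries, a difference of 39.2% of the wild-type mean. The gap between the nearest libraries was 4.6 FPKM, below the spread of 18.96 FPKM within the wild-type pools and of 5.27 FPKM within the MST1-deficient pools. This form was 333 bases longer than the longer of the 2 annotated Alox15 models (2409 bases).

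Prg3, the granule protein gene (gene 53856, chromosome 2, 84988196 to 84996559), had the lowest level of the set. Its summed FPKM was 6.6 and 9.49 in the wild-type pools and 4.69 and 4.16 in the MST1-deficient pools, without overlap under 6 of 6 scalings. The mean of 4.425 ± 0.375 FPKM (SD, n = 2) was 45% below the wild-type mean of 8.045 ± 2.04, and among the 4 genes this was the largest relative difference. The gap of 1.91 FPKM was larger than the spread within the MST1-deficient pools (0.53 FPKM) and smaller than that within wild type (2.89 FPKM). Prg3 also rested on the fewest estimated counts, 166.62 and 222.7 in the wild-type pools and 102.53 and 112.64 in the MST1-deficient pools.

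The Prg3 forms were novel_T005404, of 3302 bases, and novel_T005405, which is 15 bases longer. The first had 6.08 and 9.49 FPKM in the wild-type pools and was the sole form listed in wild-type replicate 2 and in both MST1-deficient libraries. The second was listed in wild-type replicate 1 alone, with 0.52 FPKM from 13.14 estimated counts, 7.88% of the gene's FPKM there. By counting error alone, a count of 0 allows up to about 3 counts. That is 0.127 FPKM in wild-type replicate 2 and 0.1365 and 0.11 FPKM in MST1-deficient replicates 1 and 2. The error of dividing estimated counts between 2 forms of nearly equal length is not covered by this floor. The first form accounted for -3.36 of the group difference of -3.62 FPKM. Both forms are far longer than the annotated Prg3 models: 3302 bases is 3.48 times the longest of 2 (949 bases, 6 exons), inside a gene that spans 8364 bases. The stacked bars by transcript show which form carried each level.

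**Figure D1:**
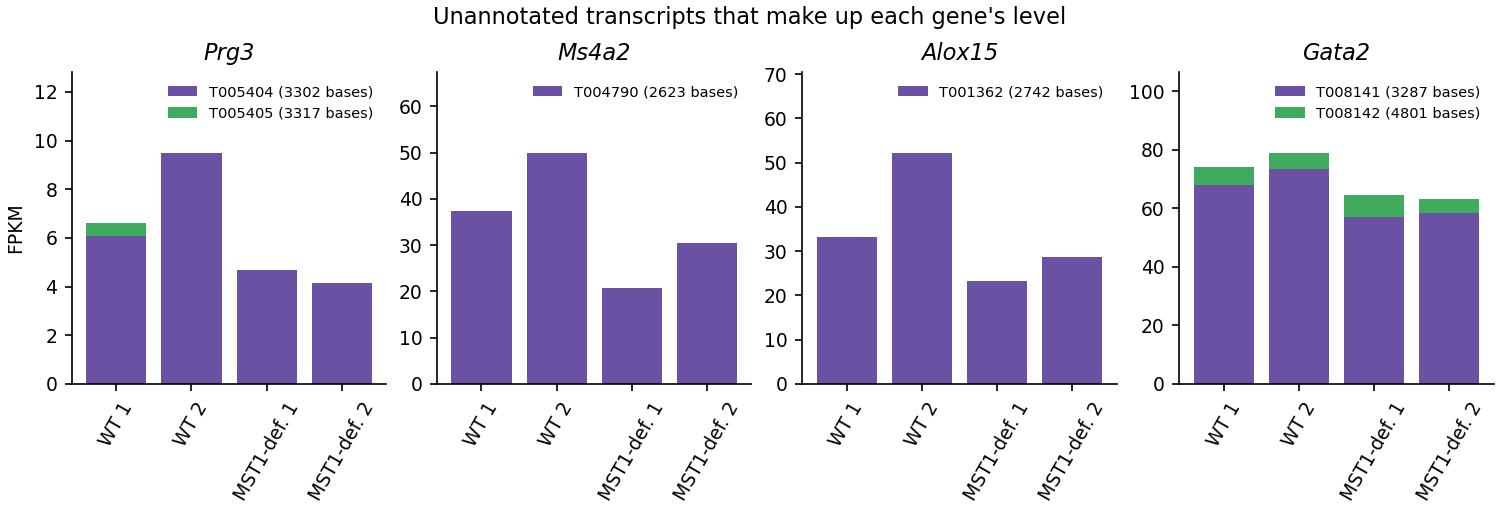
Stacked bars give the FPKM (y axis, linear from 0, a separate scale per gene) of each unannotated transcript in the 4 libraries (x axis). WT is wild type and MST1-def. is MST1-deficient. A single form carried Ms4a2 and Alox15, the second Prg3 form appeared in wild-type replicate 1 alone, and the second Gata2 form had 4.6 to 7.34 FPKM.

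**Figure D2:**
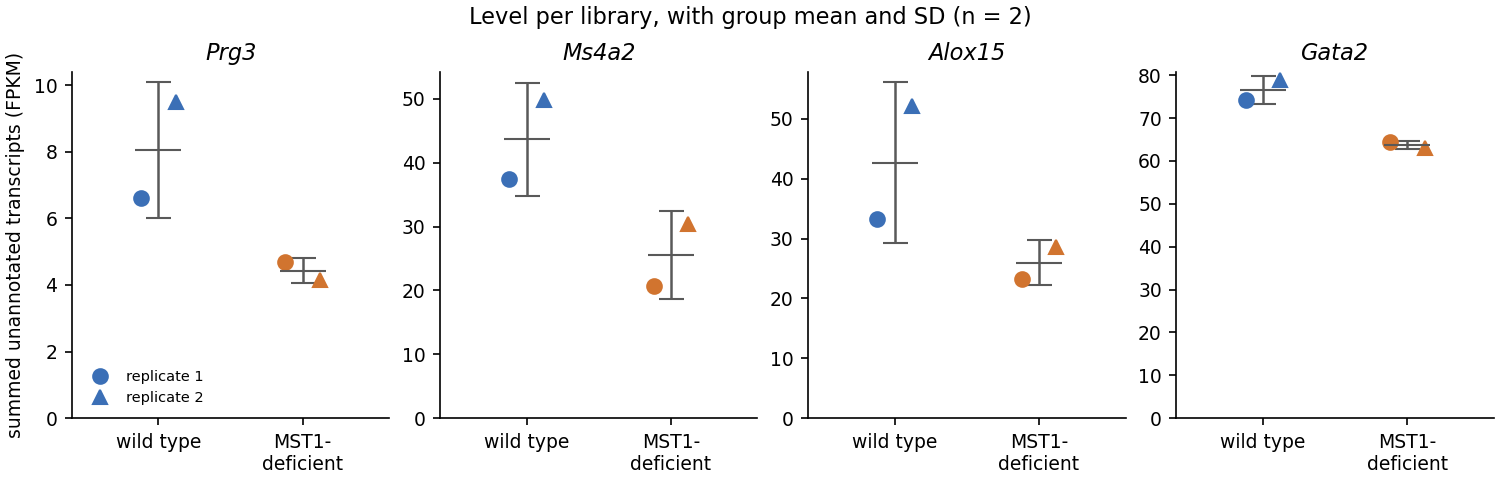
Points give the summed FPKM of each gene's unannotated transcripts (y axis, linear from 0) per library, by group (x axis); circles are replicate 1 and triangles replicate 2, and the bars show the mean and SD (n = 2). MST1-deficient libraries lie below wild-type ones in all 4 panels in FPKM (under other scalings the groups overlap for Ms4a2, Alox15 and Gata2), and the gap exceeds the spread within both groups for Gata2 alone.

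Both MST1-deficient libraries lay below both wild-type libraries for 4 of the 4 genes in FPKM, and 18.8% of the 3221 gene sums tested showed that order. So did 4 of the 5 member transcripts tested, where 19.9% of 4661 transcripts did. The genes were chosen on this contrast, so nothing is read from the count. In the fit across all gene sums (edgeR's quasi-likelihood test on rounded counts), 0.0% of 3221 sums passed an adjusted p of 0.05 in either direction. There were 182 sums at an unadjusted p under 0.05, while DESeq2 called 46 sums and limma on log2(FPKM + 0.5) called 5. The fitted log2 fold changes were -0.81 (SE 0.36) for Prg3, -0.68 (SE 0.39) for Ms4a2, -0.65 (SE 0.38) for Alox15 and -0.19 (SE 0.20) for Gata2. More negative values were fitted to 308 of the 3221 sums for Prg3, to 388 for Ms4a2, to 418 for Alox15 and to 1045 for Gata2. Since the genes were chosen on this contrast, these fitted values and places are a description too. The median over the 3221 sums was 0.01.

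The members also varied between pools of 1 genotype. Wild-type replicate 2 exceeded wild-type replicate 1 for 4 of 4 genes, by 1.57-fold for Alox15, 1.44-fold for Prg3, 1.33-fold for Ms4a2 and 1.06-fold for Gata2. MST1-deficient replicate 2 exceeded replicate 1 for Ms4a2 (1.47-fold) and Alox15 (1.23-fold), whereas replicate 1 was the higher for Prg3 (1.13-fold) and Gata2 (1.02-fold). Leaving out wild-type replicate 2 brought the edgeR log2 fold change to -0.43 for Prg3, -0.36 for Ms4a2, -0.18 for Alox15 and -0.06 for Gata2. Leaving out wild-type replicate 1 gave -1.12, -0.95, -1.003 and -0.31 for the same genes. Leaving out MST1-deficient replicate 1 gave -0.31 for Ms4a2, -0.38 for Alox15 and -0.07 for Gata2, against -1.19, -0.99 and -0.33 without MST1-deficient replicate 2. Prg3 moved less there, with -0.74 and -0.89.

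**Figure D3:**
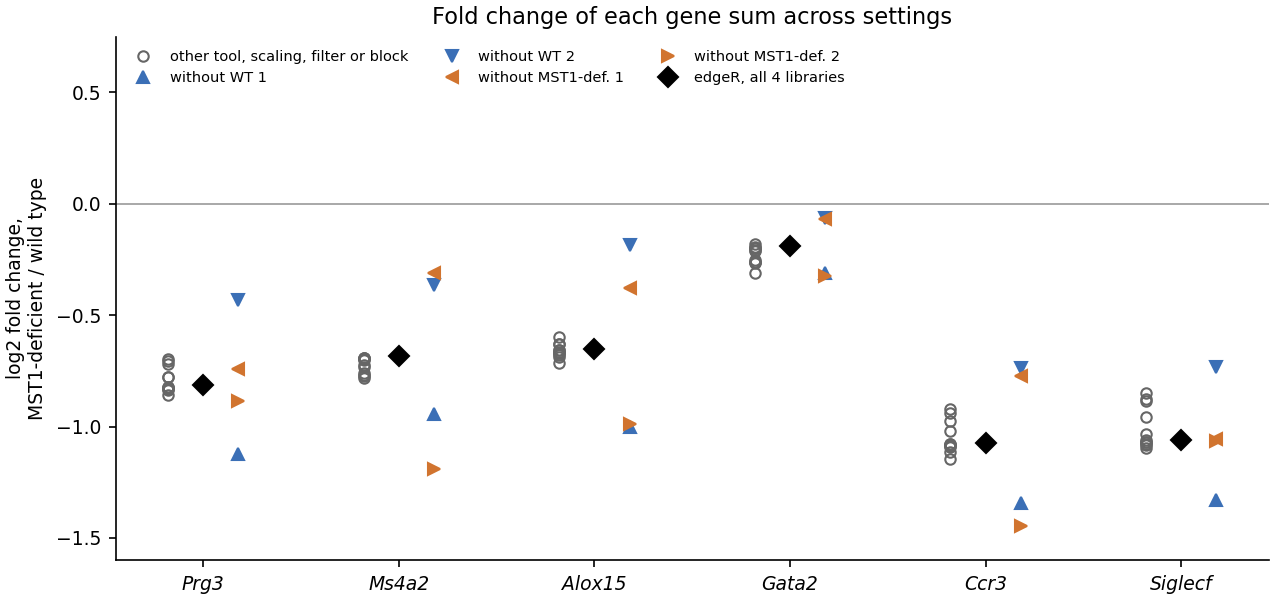
The y axis gives the log2 fold change of each gene sum, MST1-deficient over wild type, and the x axis the 4 genes with Ccr3 and Siglecf. Diamonds are edgeR on all 4 libraries, triangles leave out 1 library each, and open circles are other tools, scalings, filters or the block by replicate number. All values are below 0, and for each of the 6 genes the lowest and the highest value come from leaving out a library.

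The order of the libraries depended on how they were scaled, and this differed among the 4 genes. Scalings were compared as follows: FPKM as deposited, FPKM after median centring or quantile normalisation, and counts scaled by TMM, RLE or the implied totals. Prg3 had no overlap between the genotypes, with MST1-deficient libraries the lower, under 6 of 6 scalings, Ms4a2 under 5, Gata2 under 3 and Alox15 under 2. For Alox15 the lowest wild-type library was 1.16 times the highest MST1-deficient library in FPKM and 0.95 times in TMM-scaled counts. For Gata2 these ratios were 1.152 and 0.968, and for Ms4a2 1.23 and 1.004. The means kept wild type higher throughout, with wild type to MST1-deficient ratios of 1.73 to 1.82 for Prg3, 1.59 to 1.71 for Ms4a2, 1.55 to 1.64 for Alox15 and 1.135 to 1.24 for Gata2. Between 16.4% and 18.8% of all gene sums had the lower order under any 1 of the same 6 scalings. The share that had it under all 6 at once was not counted. Unannotated transcripts took 11.8% of the implied total in MST1-deficient replicate 2, the smallest share, and 13.5% in wild-type replicate 1, the largest. The part of this share in the order of the libraries was not tested.

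**Figure D4:**
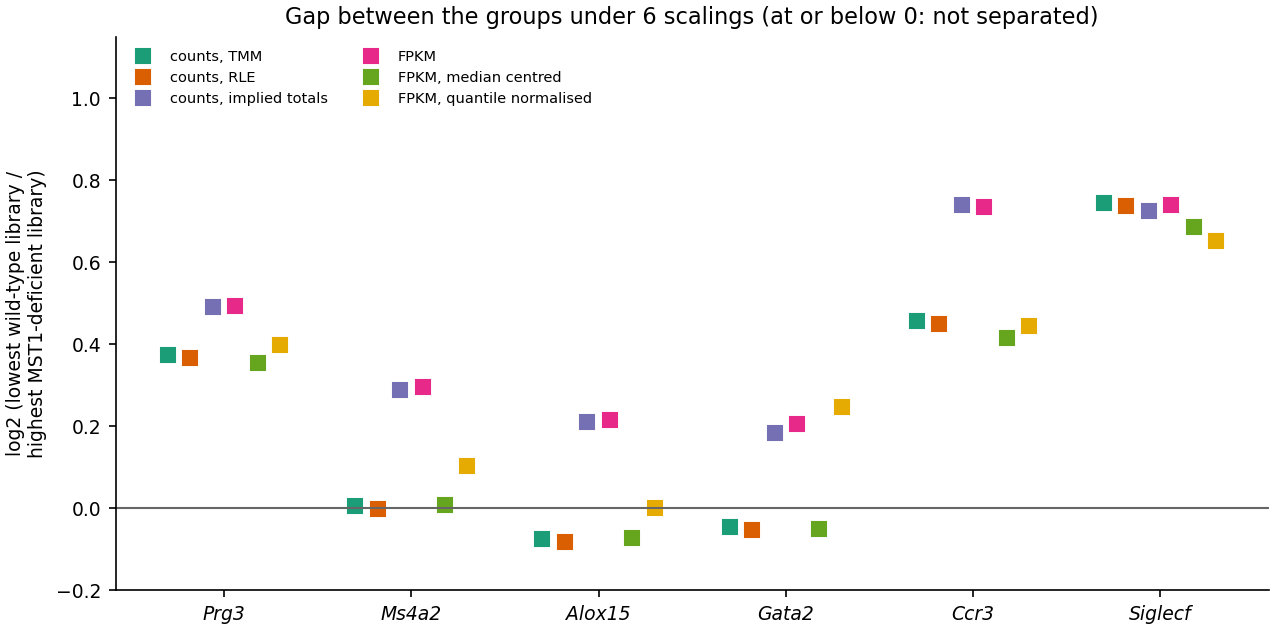
Squares give the log2 ratio of the lowest wild-type library to the highest MST1-deficient library (y axis) for each gene (x axis), with 1 colour per scaling; above the line at 0 the groups do not overlap. Prg3, Ccr3 and Siglecf stay above 0 under 6 scalings, and Ms4a2, Alox15 and Gata2 reach or cross the line under some.

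Other genes of the same lineages were taken from a list of 12 eosinophil genes and a list of 20 basophil and mast cell genes. Of the 32, 10 had an unannotated transcript in any library and 7 reached 1 FPKM in 2 or more libraries: the 4 members, Ccr3, Siglecf and Slc18a2. Ccr3, the eotaxin receptor that guides eosinophils, had 5.52 and 7.47 FPKM in the wild-type pools and 2.56 and 3.32 FPKM in the MST1-deficient pools. Siglecf, a sialic acid binding receptor used to identify mouse eosinophils, had 4.44 and 5.97 FPKM in the wild-type pools and 2.66 and 2.19 FPKM in the MST1-deficient pools. Neither gene's groups overlapped, under 6 of 6 scalings. The same order was shown by 16.4% to 18.8% of all gene sums under any 1 scaling. The share under all 6 at once was not counted. The edgeR log2 fold change was -1.07 with an SE of 0.42 for Ccr3 and -1.06 with an SE of 0.41 for Siglecf, and neither passed (adjusted p = 0.891 and 0.889 over 3221 sums, edgeR). Without wild-type replicate 2 these values were -0.74 and -0.73, and without wild-type replicate 1 they were -1.34 and -1.33. Without MST1-deficient replicate 1 they were -0.77 and -1.05, and without MST1-deficient replicate 2 they were -1.45 and -1.06.

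Ccr3 (chromosome 9, 124017825 to 124031692) had 2 unannotated forms of nearly equal length, as Prg3 did. The form of 3406 bases had 2.96 and 3.98 FPKM in the wild-type pools and 2.56 and 1.9 FPKM in the MST1-deficient pools. The form of 3389 bases had 2.56 and 3.49 FPKM in wild type, had 1.42 FPKM in MST1-deficient replicate 2 and was absent from the list of MST1-deficient replicate 1, where 3 counts would be 0.134 FPKM. Siglecf (chromosome 7, 43351341 to 43359475) had a single form of 2507 bases, with 83.95 and 104.98 estimated counts in the wild-type pools and 43.5 and 44.43 in the MST1-deficient pools.

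Slc18a2, the vesicular amine transporter of mast cell and basophil granules, had 6.29 and 5.78 FPKM in the wild-type pools and 6.19 and 4.16 FPKM in the MST1-deficient pools, and its groups overlapped in FPKM but not under 4 of the 6 scalings. Below the filter, Il5ra, the receptor chain for the eosinophil cytokine IL-5, reached 0.88 FPKM at most. Hdc, which makes histamine, had 0.25 and 0.2 FPKM in the wild-type pools and 0.34 FPKM in each MST1-deficient pool. Kit had 0.04 and 0 FPKM against 0.05 and 0.04. No unannotated transcript was listed for Prg2, Epx, Ear1, Ear2 or Ear6 among eosinophil granule genes, or for Mcpt8, Prss34, Cpa3, Fcer1a and Tpsb2 among basophil and mast cell genes. The summed FPKM of the eosinophil list was 50 and 76 in the wild-type pools and 33.7 and 38.5 in the MST1-deficient pools. That of the basophil and mast cell list was 118.2 and 134.8 against 91.7 and 98. The members make up most of both sums. Without them, the eosinophil list summed to 10.2 and 14.3 FPKM against 5.69 and 5.8, and the basophil and mast cell list to 6.58 and 5.98 FPKM against 6.58 and 4.54. The median log2 fold change of the 4 eosinophil genes tested was -0.94 and that of the 3 basophil and mast cell genes -0.19, both drawn in part from the members chosen for low values. Without the members it was -1.07 over Ccr3 and Siglecf, and Slc18a2 alone had -0.18, beside 0.01 over all sums. A low median was not particular to the eosinophil list. It was -1.83 for T and NK cell markers (3 tested), -0.91 for erythroid and megakaryocyte (4), -0.41 for B cell (3) and -0.39 for neutrophil markers (3). Medians above 0 were 0.23 for granulocyte-monocyte progenitor (3 tested), 0.11 for monocyte (1) and 0.41 for stem cell markers (1).

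**Figure D5:**
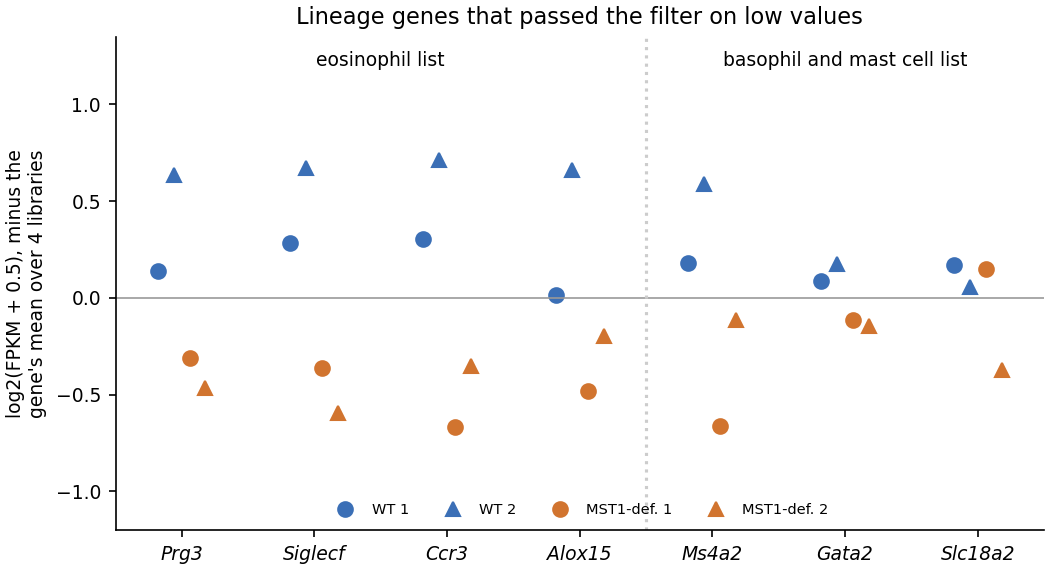
Each point is a library's log2(FPKM + 0.5) minus the gene's mean over the 4 libraries (y axis) for the 7 lineage genes that passed the filter (x axis); colours mark genotype and shapes the replicate number. For 6 genes, 4 of them chosen by this contrast, the MST1-deficient points all lie under the wild-type points (18.8% of all gene sums have that order), while those of Slc18a2 overlap (not so under 4 of 6 scalings).

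Genes that work with the members had fitted changes on both sides of 0. Negative were 2 of 6 in the IgE receptor list, 2 of 4 in the arachidonic acid list and 3 of 7 in the GATA2 list. In these lists 0 passed the edgeR threshold, and 2, 0 and 0 had an unadjusted p under 0.05. Over all 3221 sums 48.9% were negative, 182 had an unadjusted p under 0.05 and 0 passed. In the IgE receptor pathway, 6 genes besides Ms4a2 were tested among 24 listed. Pik3cd, the leukocyte PI3 kinase subunit, had 51.28 and 38.18 FPKM in the MST1-deficient pools against 27.33 and 32 in wild type. Prkcd, a protein kinase C that acts below the receptor, had 20.32 and 12.75 FPKM against 7.38 and 7.05. Both had their MST1-deficient libraries above their wild-type ones, an order shown by 14.0% of all sums, with edgeR adjusted p of 0.813 and 0.516. The calcium sensor Stim1 (14.5 ± 3.49 against 17.1 ± 1.52 FPKM in wild type; SD, n = 2) and the phospholipase Plcg1 (6.035 ± 1.62 against 5.475 ± 1.52) overlapped between groups.

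Around Alox15, 4 other genes of arachidonic acid metabolism were tested among 19 listed. Alox5ap, which presents arachidonic acid to the 5-lipoxygenase, had 530.97 and 510.71 FPKM in the wild-type pools and 429.62 and 486.26 FPKM in the MST1-deficient pools, and its groups overlapped under 3 of 6 scalings. Ptgs2, the inducible cyclooxygenase, had 0.6 and 1.21 FPKM against 2.72 and 1.97, and Ptgs1, the constitutive one, 1.74 and 1.05 against 1.78 and 1.78. Pla2g6, a phospholipase, overlapped between groups, with 2.9 and 1.66 FPKM in the wild-type pools and 3.62 and 0 in the MST1-deficient pools. The median log2 fold change of the 4 was 0.17, beside 0.01 over all sums.

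Among 15 partners and fellow factors of GATA2, 7 were tested and 6 overlapped between groups. For Ldb1, which bridges GATA complexes, the level was 59.5 ± 5.5 FPKM (SD, n = 2; wild type) and 54.8 ± 11.8 FPKM (MST1-deficient). The E proteins Tcf12 (9.31 ± 0.141 against 9.09 ± 3.9) and Tcf3 (7 ± 0.297 against 5.74 ± 1.41) and the adaptor Lmo2 (4.745 ± 1.36 against 6.195 ± 1.94) are given in the same order, and Tcf3 was the 1 gene without overlap in FPKM. Its nearest libraries were almost equal, with 6.79 FPKM in wild-type replicate 1 and 6.74 FPKM in MST1-deficient replicate 1. The 7 had a median log2 fold change of 0.07. Of 15 genes of the IL-5, IL-3 and GM-CSF receptors and their signalling, 1 was tested: the phosphatase gene Ptpn11, with 5.275 ± 0.276 FPKM in the wild-type pools and 4.925 ± 2.54 in the MST1-deficient pools.

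Markers of other cells were set beside these values. Summed over 10 neutrophil markers (3 listed), libraries had 103.9 and 49.1 FPKM in the wild-type pools and 40.1 and 54.8 in the MST1-deficient pools, and over 10 monocyte markers (2 listed) 43.7 and 29.4 against 52.5 and 23.4. The 14 erythroid and megakaryocyte markers (7 listed) summed to 56.4 and 71.5 FPKM against 58.4 and 38.8. Of the 4 tested, 3 overlapped and Sptb did not, with 13.82 and 15.76 FPKM against 7.89 and 2.91. The 10 T and NK cell markers (3 listed) summed to 36.6 and 28 FPKM against 17.4 and 12, without overlap. Of this sum Klrc1, an NK cell receptor gene, held 19.71 and 22.29 FPKM against 3.98 and 4.34. Ncr1, another NK cell receptor gene, had the opposite order, with 5.41 and 4.93 FPKM against 9.86 and 7.63, and the groups of Klrb1c, the remaining one, overlapped. In FPKM, 18.8% of all 3221 gene sums had both MST1-deficient libraries lower and 14.0% had both higher. The 8 B cell markers (3 listed) summed to 22.3 FPKM in wild-type replicate 1, 1.72 in wild-type replicate 2 and 9.46 and 8.42 in the MST1-deficient pools. The 10 stem and multipotent progenitor markers (2 listed) summed to 8.94 and 10.1 FPKM against 9.5 and 12.4. Of the markers tested in these lists, 0 passed the edgeR threshold, as did 0 of all 3221 sums. Defining genes such as Cd3e, Cd79b, Klf1, Ly6c2 and S100a9 had no unannotated transcript listed in any library. Of the Y-linked genes, Ddx3y, Eif2s3y, Kdm5d and Uty summed to 3.6 and 0 FPKM in the wild-type pools and 23.4 and 14.8 in the MST1-deficient pools. The part of cell makeup or of the sex of the pooled mice in the members' values was not tested.

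The pattern over 4 libraries was shared by many genes. Likeness was measured as the root mean square difference in log2(FPKM + 0.5), each gene centred on its own mean. Nearest to Prg3 were Setdb1 (0.055), Oard1 (0.072) and Pitpnc1 (0.074), and nearest to Ms4a2 were Notch4 (0.032), Dnaaf5 (0.067) and Marchf2 (0.067). Alox15 was nearest to Herc3 (0.038), Usp32 (0.043) and Spn (0.066), and Gata2 to Rab3ip (0.029), Lzic (0.031) and Pld1 (0.034). Within 0.2 of a member lay 59 of 3220 genes for Prg3, 51 for Ms4a2, 53 for Alox15 and 546 for Gata2. Ms4a2 and Alox15 were the closest pair of members (0.13), with 17 genes closer to Ms4a2 than Alox15 was, whereas Ms4a2 and Gata2 were the farthest apart (0.35). With 4 libraries, likeness of this kind describes the libraries and is no sign of a shared function.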

How the data were processed

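RNA-seq libraries of granulocyte-monocyte progenitors, 2 wild-type and 2 MST1-deficient pools, were grouped by their titles. The authors deposited estimated counts (expected counts) and FPKM per unannotated transcript, per the file headers. Per the submitters' processing notes, the genome build was mm10. Which aligner, assembler, estimator and annotation were used is not given in the sources used here. Deposited lists hold values above 0, so transcripts absent from a library's list count as 0 there. Library totals were implied from FPKM, count and length among transcripts with an FPKM of at least 10, and the FPKM matched lengths shortened by 126 to 138.4 bases. Of 5059 gene numbers, 5051 matched RefSeq (GRCm38.p6, the build of mm10) and 8 did not. Promoter stretches come from RefSeq (GRCm38.p6) and were present for 3 of the 4 genes. Model lengths come from GENCODE M21, which is on GRCm38.

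Counts were rounded and tested with edgeR 4.0.16 (quasi-likelihood F-test, 2-sided, TMM) under R 4.3.3, over features that reached 1 FPKM in 2 or more libraries, with Benjamini-Hochberg adjustment and a threshold of 0.05. All 4 members passed this filter, as did 5 of their 6 transcripts. The SE given with an edgeR log2 fold change is its absolute value divided by the square root of the F statistic. Alternatives were RLE factors, implied totals, DESeq2 1.42.0, limma 3.58.1 on log2(FPKM + 0.5) and other pseudocounts (0.1 and 1), a looser and a stricter filter, a block by replicate number and leaving out 1 library at a time. Median centring and quantile normalisation were chosen after seeing the data. P-values measure the spread between 2 pools per group, which may be partly technical, and an exact test of 2 against 2 cannot go below 0.33. PCR copies were not marked, so intervals and floors (3 counts) cover counting error only, and estimated counts add an error of their own.

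The members and the 14 gene lists were chosen with earlier results of these data known. The text names the 4 members with their transcripts, up to 5 genes of each pathway list with the highest mean FPKM, and the 3 genes nearest to each member in pattern. Markers of other cells come from the same lists, and Klrc1, Ncr1, Klrb1c, Sptb and the examples of genes with no transcript listed were named after their values were seen.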

Additional observations from a re-analysis of the deposited data

How the results depend on the processing

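The log2 fold changes of the 4 gene sums, of Ccr3 and of Siglecf were below 0 under 15 alternatives each, which for the 4 members describes the values they were chosen by. They ranged from -1.12 to -0.43 for Prg3, from -1.19 to -0.31 for Ms4a2, from -1.003 to -0.18 for Alox15, from -0.33 to -0.06 for Gata2, from -1.45 to -0.74 for Ccr3 and from -1.33 to -0.73 for Siglecf, with both ends set by leaving out a library. The longer Gata2 form (novel_T008142) had 0.07 with all libraries and reversed to -0.12 without MST1-deficient replicate 1, against 0.26 without MST1-deficient replicate 2, where fewer samples enter. The number of gene sums that passed was 0 with edgeR, 46 with DESeq2, 5 with limma on log2(FPKM + 0.5), 9 with a pseudocount of 0.1, 5 with a pseudocount of 1, 5 with median centring and 1 among sums above 0 in all 4 libraries. For single transcripts it was 0 with edgeR (245 at an unadjusted p under 0.05), 103 with DESeq2, 5 with limma on log2(FPKM + 0.5), 6 with a pseudocount of 1, 6 with median centring, 1 with quantile normalisation and 2 among transcripts above 0 in all 4 libraries. Leaving out a library gave 0 to 0 for both. The cause of these differences was not tested. With the replicate number as a block, 0 sums and 0 transcripts passed (lowest adjusted p 0.293 and 0.946, edgeR). The labels do not say that a number marks a shared batch, and differences between replicates correlated across genes with r = 0.127 for sums and 0.126 for transcripts between the genotypes. Measured in estimated counts instead of FPKM, the share of the shorter Gata2 form was 89.1% in the wild-type pools and 86.8% in the MST1-deficient pools, since counts weigh long transcripts more. Among the 4 members Prg3 had the fewest counts in its lowest library (102.53), and those of Ccr3 and Siglecf were fewer (57.74 and 43.5).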
